A study of Danio rerio with 20 samples.

Results

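The immunoproteasome and antigen presentation genes described here are the 8 zebrafish genes psmb8a, psmb9a, psmb10, psme1, psme2, tap1, tap2a and b2m, found by their symbols among the 38718 gene models of the deposited table. They were picked as a group with earlier results of these data in view, namely higher psmb8a and psmb9a at citalopram 1000 µg/L and higher psmb9a in every drug group than in the reference. Those comparisons are therefore given as descriptions without a p-value. RNA sequencing covered 20 libraries of whole zebrafish larvae, 4 in each of 5 groups. A pair of groups was exposed to 1000 or 10 µg/L of citalopram, an antidepressant that blocks serotonin reuptake, another pair to 100 or 1 µg/L of the alkylating anticancer drug ifosfamide, and the last is labelled ERM. The meaning of ERM is not given, and its treatment entry carries a concentration without a compound. The group was taken here as the drug-free reference because no compound is named beside it. Every comparison with ERM rests on this reading, which the labels do not settle. The labels give no strain, age or exposure time. The design names 5 beakers per treatment with 4 chosen for sequencing, so each library was treated as a beaker, and p-values measure the spread between these libraries.

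Vertebrate cells cut unneeded proteins into peptides in the proteasome, a barrel whose catalytic sites sit on 3 subunits, psmb5, psmb6 and psmb7. Interferon signalling and cells of the immune system replace them with psmb8, psmb9 and psmb10, which gives the immunoproteasome, and add the PA28 cap made of psme1 and psme2. The peptides are carried into the endoplasmic reticulum by the transporter made of tap1 and tap2, bound by MHC class I molecules, whose light chain is b2m, and shown on the cell surface to cytotoxic T cells. In zebrafish, as in other bony fish, several of these genes lie together with class I chains in the core MHC region, here on chromosome 19.

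Depth ranged from 10699800 to 17311000 reads per library, as recovered from the steps of the FPKM values. FPKM, the unit of the table, is fragments scaled to gene length and to a factor per library. That factor was here the median-of-ratios size factor and not the total of reads. Library C of citalopram 1000 µg/L stood apart, with 25952 gene models above 0 against 28913 to 30110 in the others. The lowest correlation within a group was 0.844 with it and 0.925 without it. A read in a gene of 1 kb counted 0.115 FPKM in library C, against 0.0591 to 0.0885 in the others. High FPKM values in library C thus depend on this scaling. For psmb8a it held 43 reads beside 66 in library A of its group, but 3.05 FPKM beside 2.41. Markers of muscle, neurons, liver, exocrine pancreas, epidermis and lens were present in every library, as whole larvae would have. In whole larvae, fewer cells of a type and less RNA per cell cannot be told apart.

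On the scale of FPKM, which allows levels to be set side by side because it is per length, all 8 genes were low to moderate. The mean over the 20 libraries was 5.23 FPKM for psmb10, 4.45 for psme2, 2.79 for b2m, 1.39 for psmb8a, 1.17 for psmb9a, 0.975 for tap1, 0.117 for tap2a and 0.0603 for psme1. The first exceeded 77.3% of all gene models and the last exceeded 20.9%. The values for psmb8a and psmb9a rest on few reads, 588 and 351 in all libraries together. Only 5 of the 8 genes, psmb8a, psmb9a, psmb10, psme2 and b2m, reached the mean of 1 FPKM required for testing.

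psmb9a (ENSDARG00000000656, GRCz11 chromosome 19, 7120380 to 7122373, plus strand) codes for the inducible subunit that takes the place of psmb6. Its FPKM was 1.69, 1.497, 2.29 and 0.685 in libraries A to D of citalopram 1000 µg/L, 1.09, 1.11, 1.69 and 1.02 at citalopram 10 µg/L, 1.33, 2.37, 0.939 and 0.947 at ifosfamide 100 µg/L, 0.987, 1.79, 1.78 and 0.624 at ifosfamide 1 µg/L, and 0.307, 0.336, 0.434 and 0.422 in ERM libraries A, B, C and E. All 16 drug libraries lay above all 4 ERM libraries, which is the pattern the gene was chosen for. The lowest drug library, D of ifosfamide 1 µg/L, had 9 reads, and the ERM libraries had 4 to 7. Group means were 1.54 ± 0.663, 1.23 ± 0.309, 1.40 ± 0.677 and 1.29 ± 0.583 FPKM in the 4 drug groups in that order, against 0.375 ± 0.0627 in ERM (SD, n = 4 each), which made the drug means 3.28 to 4.11 times the ERM mean. Drug groups next to each other in order of mean did not differ beyond their SD. Over all tested gene models, 0.0558% had all 16 drug libraries above all 4 ERM libraries; since the gene was chosen for that pattern, nothing is read from the share.

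psmb8a (ENSDARG00000001303, chromosome 19, 7105838 to 7144548, minus strand), the inducible counterpart of psmb5, was also highest at citalopram 1000 µg/L and lowest in ERM in mean, but overlapped with ERM. Its FPKM was 2.41, 1.51, 3.05 and 0.576 at citalopram 1000 µg/L, 1.79, 1.27, 2.25 and 1.21 at citalopram 10 µg/L, 1.29, 2.77, 1.58 and 0.809 at ifosfamide 100 µg/L, 0.890, 2.104, 1.80 and 0.444 at ifosfamide 1 µg/L, and 0.383, 0.526, 0.882 and 0.350 in ERM. Library D was the lowest of its group in each of the 4 drug groups, and 13 of the 16 drug libraries exceeded every ERM library. The share of all gene models that reach 13 of 16 was not computed. The group means were 1.88 ± 1.08, 1.63 ± 0.490, 1.61 ± 0.833 and 1.31 ± 0.774 FPKM in the drug groups in the same order, and 0.535 ± 0.243 in ERM (SD, n = 4 each). Outside the comparison that chose it, the difference from ERM did not pass at citalopram 10 µg/L (0.77 on the log2(FPKM + 1) scale, SE 0.29, limma adjusted p over all tested gene models 1.00), ifosfamide 100 µg/L (0.73, SE 0.29, adjusted p = 0.920) or ifosfamide 1 µg/L (0.54, SE 0.29, adjusted p = 0.787). These comparisons share their ERM libraries with the one that chose the gene.

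psmb10 (ENSDARG00000043781, chromosome 4, 77207693 to 77218637, minus strand), which replaces psmb7, did not follow the other 2 inducible subunits against ERM. Its FPKM was 7.24, 5.44, 8.81 and 3.35 at citalopram 1000 µg/L, 4.66, 5.13, 7.14 and 6.84 at citalopram 10 µg/L, 3.41, 6.60, 3.86 and 3.74 at ifosfamide 100 µg/L, 4.43, 4.88, 4.72 and 3.62 at ifosfamide 1 µg/L, and 6.42, 3.69, 5.15 and 5.50 in ERM. The ERM libraries fell inside the range of the drug libraries. Means were 6.21 ± 2.35 and 5.94 ± 1.23 FPKM in the citalopram groups (high dose first), 4.40 ± 1.48 and 4.41 ± 0.562 in the ifosfamide groups (high dose first) and 5.19 ± 1.14 in ERM (SD, n = 4 each). Both citalopram groups were thus above and both ifosfamide groups below ERM in mean, without passing the test in any comparison with ERM.

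**Figure D1:**
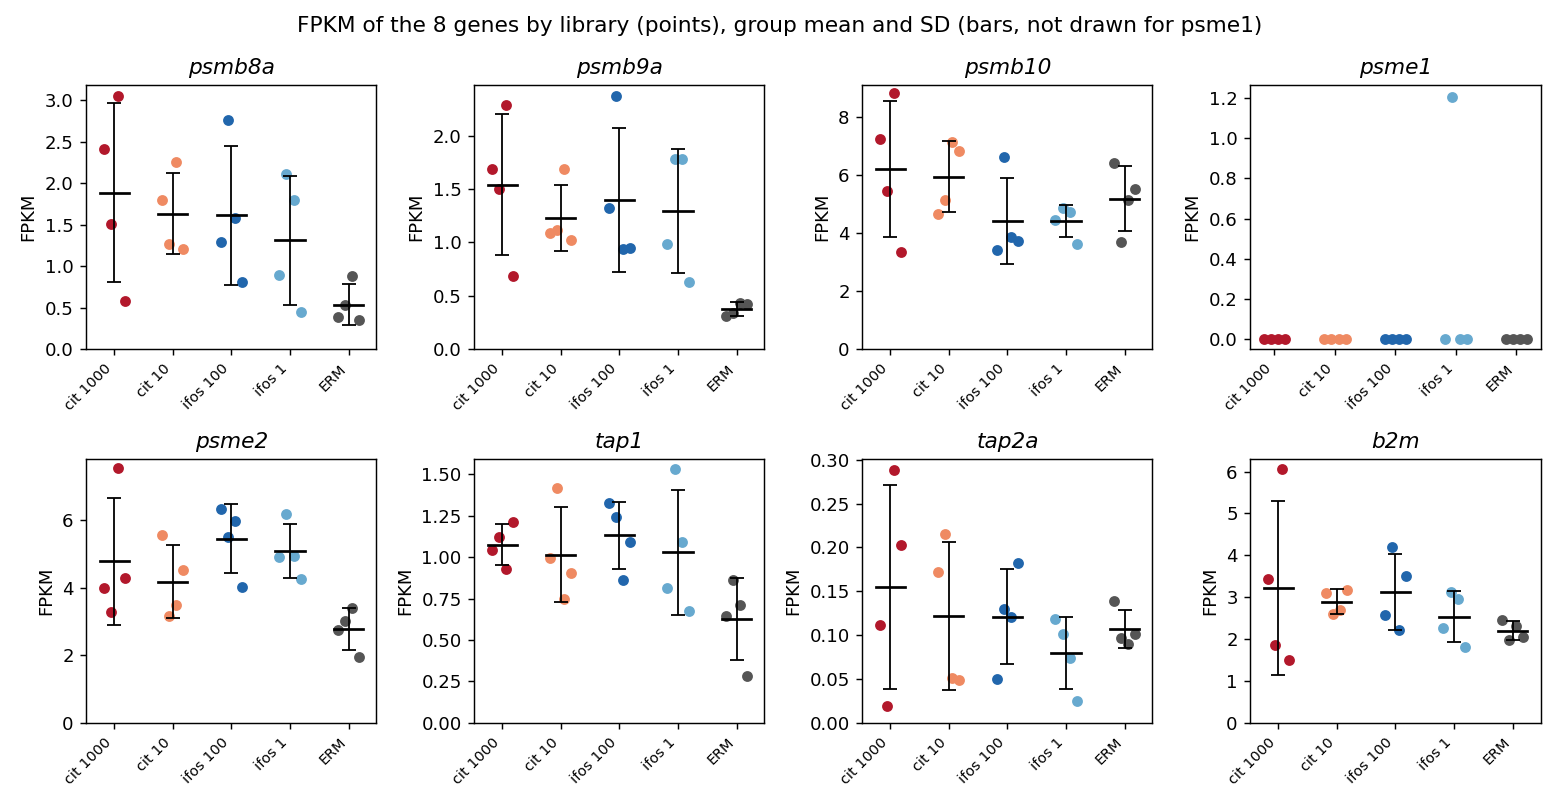
FPKM of each of the 8 genes (y axis, a scale per panel) in the 20 libraries, by group from citalopram 1000 µg/L (cit 1000) to ERM; points are libraries, bars are group means and SD, drawn for all but psme1. For psmb9a all 16 drug libraries (0.624 to 2.37 FPKM) sit above the 4 ERM libraries (0.307 to 0.434), while psmb10 and tap2a overlap ERM in every group and psme1 is above 0 in 1 library.

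Set against the subunit each one replaces, the inducible subunits made up a small part at all doses. The psmb9a level was 1.35 ± 0.393% of the psmb6 level at citalopram 1000 µg/L, 1.29 ± 0.198% at its dose of 10 µg/L, 2.195 ± 0.791% in the high and 2.201 ± 1.06% in the low ifosfamide group, against 0.459 ± 0.0535% in ERM (SD, n = 4 each). The lowest drug library was at 0.784% and the highest ERM library at 0.494%. The mean ratio was lower in both citalopram groups than in both ifosfamide groups, with overlapping SDs. psmb6 itself averaged 138 ± 108 and 97.8 ± 34.4 FPKM in the citalopram groups and 63.4 ± 15.5 and 59.4 ± 5.42 FPKM in the ifosfamide groups (high dose first in both). It averaged 81.7 ± 10.0 FPKM in ERM (SD, n = 4 each). The mean of 138 leaned on library C, at 292 FPKM against 40.9 to 110 in the others of its group. The psmb8a level was 3.43 ± 0.942%, 3.21 ± 0.738%, 3.68 ± 1.54% and 3.50 ± 1.84% of psmb5 in the drug groups in the same order, and 1.17 ± 0.506% in ERM. Here psmb5 includes a second gene model on an alternate contig that the table describes as similar to it and that averaged 19.5 FPKM beside 26.0 FPKM for psmb5. The psmb10 level was 3.28% to 3.78% of psmb7 in the drug groups and 3.37% in ERM, with overlapping ranges. The ratios use psmb8a and psmb9a and so hold no support beyond the levels above.

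The second cap gene, psme2 (ENSDARG00000033144, chromosome 12, 13319132 to 13331980, plus strand), codes for the beta subunit of PA28. Its FPKM was 3.99, 3.28, 7.53 and 4.29 at citalopram 1000 µg/L, 5.57, 3.16, 3.47 and 4.51 at citalopram 10 µg/L, 6.32, 5.50, 5.98 and 4.01 at ifosfamide 100 µg/L, 4.89, 6.18, 4.95 and 4.26 at ifosfamide 1 µg/L, and 2.75, 2.997, 3.39 and 1.95 in ERM. All 8 ifosfamide libraries exceeded all 4 ERM libraries, as did 3 of 4 libraries in each citalopram group. Of all tested gene models, 1.76% lay wholly above ERM at ifosfamide 100 µg/L and 2.19% at ifosfamide 1 µg/L. The share for both doses together was not computed, so nothing is read from the 8 libraries. The mean was 5.45 ± 1.02 FPKM at ifosfamide 100 µg/L and 5.07 ± 0.803 at ifosfamide 1 µg/L, against 2.77 ± 0.609 in ERM (SD, n = 4 each). The difference was 0.77 (SE 0.20, 95% interval 0.35 to 1.2003) at the high dose and 0.69 (SE 0.20, 0.27 to 1.12) at the low dose on the log2(FPKM + 1) scale. Neither passed after adjustment over all gene models (limma, adjusted p = 0.920 at 100 µg/L and 0.787 at 1 µg/L). At citalopram 10 µg/L the mean was 4.18 ± 1.09 FPKM and the difference from ERM 0.45 (SE 0.20, limma adjusted p = 1.00).

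The gene model named psme1 (ENSDARG00000002165, chromosome 24, 12945803 to 12954482, plus strand), the alpha subunit of PA28, was listed at 0 in 19 of the 20 libraries. Its 22 reads all came from library B of ifosfamide 1 µg/L, at 1.21 FPKM. A gene model that carries no Ensembl identifier lies on the alternate contig CHR_ALT_CTG24_1_4, from 12945506 to 12954797 on the plus strand, and the table describes it as similar to the PA28 alpha subunit. It held 3 to 160 reads in every library, 1075 in all, and averaged 2.32 FPKM. Its mean was 2.44 ± 0.612, 1.94 ± 2.36, 3.69 ± 2.91 and 1.503 ± 1.32 FPKM in the drug groups from citalopram 1000 µg/L to ifosfamide 1 µg/L, and 2.00 ± 0.977 in ERM (SD, n = 4 each). The spread within groups was wide, with 0.136 FPKM in the lowest library (D of ifosfamide 1 µg/L) and 7.53 in the highest (B of ifosfamide 100 µg/L). In the library with psme1 reads, the alternate model held 17 reads. How reads that fit both models were assigned is not given in the sources used here, so a 0 for psme1 says nothing on whether the larvae expressed it. The table lists 1288 protein-coding Ensembl gene models at 0 in all libraries and places 4039 models with no such identifier on alternate contigs.

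**Figure D2:**
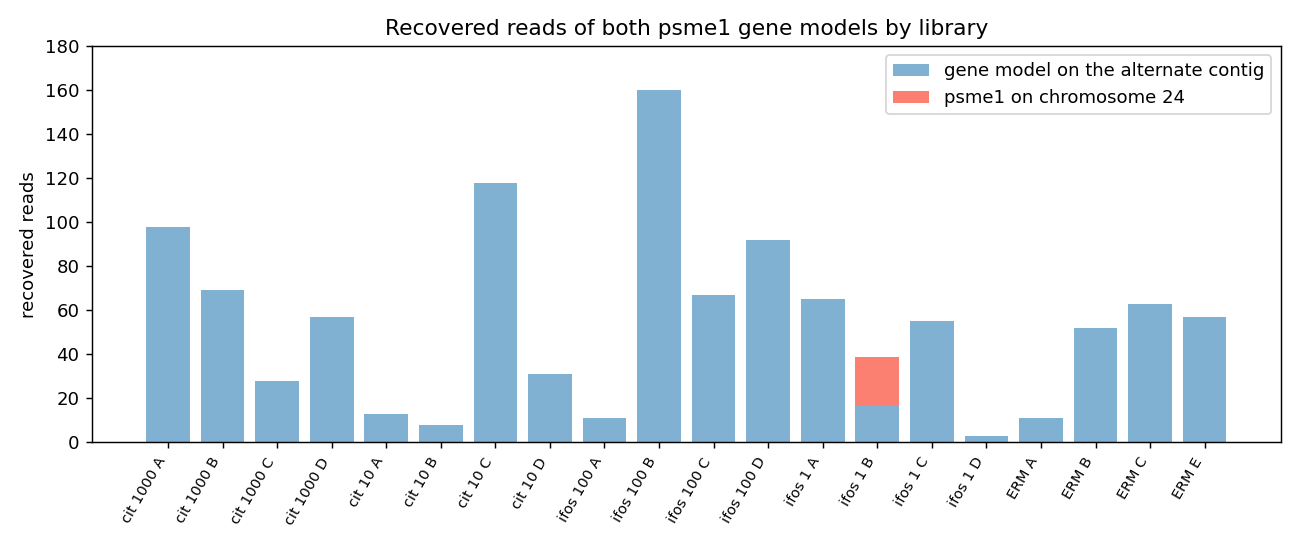
Reads recovered for psme1 on chromosome 24 (red) and for the similar gene model on the alternate contig (blue), stacked, in each of the 20 libraries (x axis, by group); the y axis counts reads. The alternate model holds reads in all 20 libraries, psme1 in 1 library.

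The peptide transporter genes were both below the level required for testing. tap1 (ENSDARG00000079766, chromosome 16, 48678655 to 48708045, plus strand) had 1.05, 1.12, 0.926 and 1.21 FPKM at citalopram 1000 µg/L, 0.995, 1.42, 0.748 and 0.904 at citalopram 10 µg/L, 1.33, 1.24, 0.861 and 1.09 at ifosfamide 100 µg/L, 0.816, 1.53, 1.09 and 0.676 at ifosfamide 1 µg/L, and 0.646, 0.863, 0.714 and 0.280 in ERM. The groups other than citalopram 1000 µg/L overlapped with ERM, and 12 of 16 drug libraries exceeded every ERM library. At citalopram 1000 µg/L, 1.4% of all tested gene models lay wholly above ERM. How many reach 12 of 16 was not computed, so nothing is read from either count. Group means were 1.08 ± 0.121, 1.02 ± 0.285, 1.13 ± 0.205 and 1.03 ± 0.377 FPKM in the drug groups in the same order, and 0.626 ± 0.247 in ERM (SD, n = 4 each). The differences from ERM on the log2(FPKM + 1) scale ran from 0.31 to 0.40. tap2a (ENSDARG00000036787, chromosome 19, 7124337 to 7132315, plus strand) had 1 to 9 reads per library in the drug groups and 4 or 5 in ERM. At that depth no difference was detectable. Its paralog tap2t (chromosome 12) averaged 2.06 ± 0.379 FPKM in the 16 drug libraries and 2.39 ± 0.254 in the 4 ERM libraries.

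b2m (ENSDARG00000053136, chromosome 4, 12785964 to 12795489, minus strand), the light chain of MHC class I, had 3.43, 1.85, 6.06 and 1.497 FPKM at citalopram 1000 µg/L, 3.11, 2.59, 2.69 and 3.18 at citalopram 10 µg/L, 2.57, 4.205, 2.21 and 3.50 at ifosfamide 100 µg/L, 2.26, 3.12, 2.96 and 1.80 at ifosfamide 1 µg/L, and 2.45, 1.98, 2.31 and 2.04 in ERM. Citalopram 1000 µg/L held both the lowest and the highest library of the series, and citalopram 10 µg/L was the single group with all 4 libraries above ERM. The difference from ERM was 0.28 (SE 0.24, limma adjusted p = 1.00) at citalopram 10 µg/L, 0.34 (SE 0.24, adjusted p = 0.920) at ifosfamide 100 µg/L and 0.13 (SE 0.24, adjusted p = 0.882) at ifosfamide 1 µg/L. At citalopram 1000 µg/L the value of 0.28 depended on single libraries: it was -0.01 without library C and 0.49 without library D. By FPKM, the paralog b2ml (chromosome 8) was far higher than b2m, at 78.4 ± 20.6 FPKM in the 16 drug libraries and 63.3 ± 4.63 in the 4 ERM libraries.

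Across the whole table, none of the 5 tested genes passed an adjusted p of 0.05 in any of the 8 comparisons made with limma. Against ERM, 0.0304% of all tested gene models passed in either direction at citalopram 1000 µg/L, 0.0101% at citalopram 10 µg/L, 0% at each ifosfamide dose, and 0.0254% for the 4 drug groups together. Nothing is read from the counts at citalopram 1000 µg/L or for the drug groups together, which hold the differences the genes were chosen on. For the same reason psmb9a is left out of the counts that follow, which cover the other 4 genes in the remaining comparisons with ERM. At an unadjusted p under 0.05 were psmb8a and psme2 at citalopram 10 µg/L (2.42% of all tested gene models were), psmb8a and psme2 at ifosfamide 100 µg/L (3.27%) and psme2 at ifosfamide 1 µg/L (4.8%). voom on the recovered reads also called none of them. psmb8a and psmb9a averaged under 1 FPKM in ERM and reached the level required for testing through the drug groups, so the 5 genes are not summed up by a median or a count of signs against ERM. Of the tested genes apart from psmb9a, wholly above ERM lay none at citalopram 1000 µg/L (1.4% of all tested gene models did), psmb8a and b2m at citalopram 10 µg/L (1.38%), psme2 at ifosfamide 100 µg/L (1.76%) and psme2 at ifosfamide 1 µg/L (2.19%). All comparisons with ERM use the same 4 ERM libraries. psmb8a was chosen on a difference from these libraries, so nothing is read from its place in either count.

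Comparisons that leave ERM out asked whether dose or drug mattered. Between citalopram 1000 and 10 µg/L, 0 of the 5 genes passed (0% of all tested gene models did), 0 had an unadjusted p under 0.05 (3.67% did), and the largest difference was that of psmb9a, 0.16 (SE 0.22, 95% interval -0.30 to 0.62, limma adjusted p = 1.00). The same held between ifosfamide 100 and 1 µg/L (0% and 0.852%), where the largest was that of b2m, 0.21 (SE 0.24, interval -0.30 to 0.72, adjusted p = 1.00). For psmb8a the intervals of the dose differences were -0.53 to 0.66 for citalopram and -0.41 to 0.79 for ifosfamide. The differences of psmb8a from ERM were 0.84 and 0.77 at the citalopram doses and 0.73 and 0.54 at the ifosfamide doses (high dose first). Since the value of 0.84 chose the gene and the others share its ERM libraries, the dose intervals are not weighed against them.

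Between the drugs, with 8 libraries each, 0 of 5 genes passed (0.0101% of all tested gene models did) and 1 had an unadjusted p under 0.05, where 18.4% of all gene models did, so 1 of 5 is near the background. That gene was psmb10, which was higher by 0.37 in citalopram than in ifosfamide libraries (SE 0.16, limma adjusted p = 0.246), with 4 of 8 citalopram libraries above every ifosfamide library. Without library D of citalopram 1000 µg/L it passed (adjusted p = 0.0384, when 2309 gene models did), and over all alternatives tried the smallest adjusted p among the 5 genes ran from 0.00178 to 0.443. The direction was shared by most other proteasome genes and by markers of several unrelated tissues, though not of neurons. All 3 constitutive catalytic subunits and all 14 tested genes of the list of core and assembly genes had positive differences in this comparison, with medians of 0.46 and 0.34 beside 0.00 over all gene models, and none passed. So had all tested markers of skeletal muscle (3, median 0.36), liver (3, median 0.43), exocrine pancreas (2, median 0.46), epidermis (2, median 0.29) and lens (3, median 0.83). Of the neuron markers 1 of 3 was positive (median -0.02), and of the proteasome caps 18 of 23 were (median 0.13). psme2 went the other way, -0.22 (SE 0.14, adjusted p = 0.379), and psmb8a and psmb9a differed by 0.17 (SE 0.20, adjusted p = 0.620) and 0.03 (SE 0.15, adjusted p = 0.910).

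**Figure D3:**
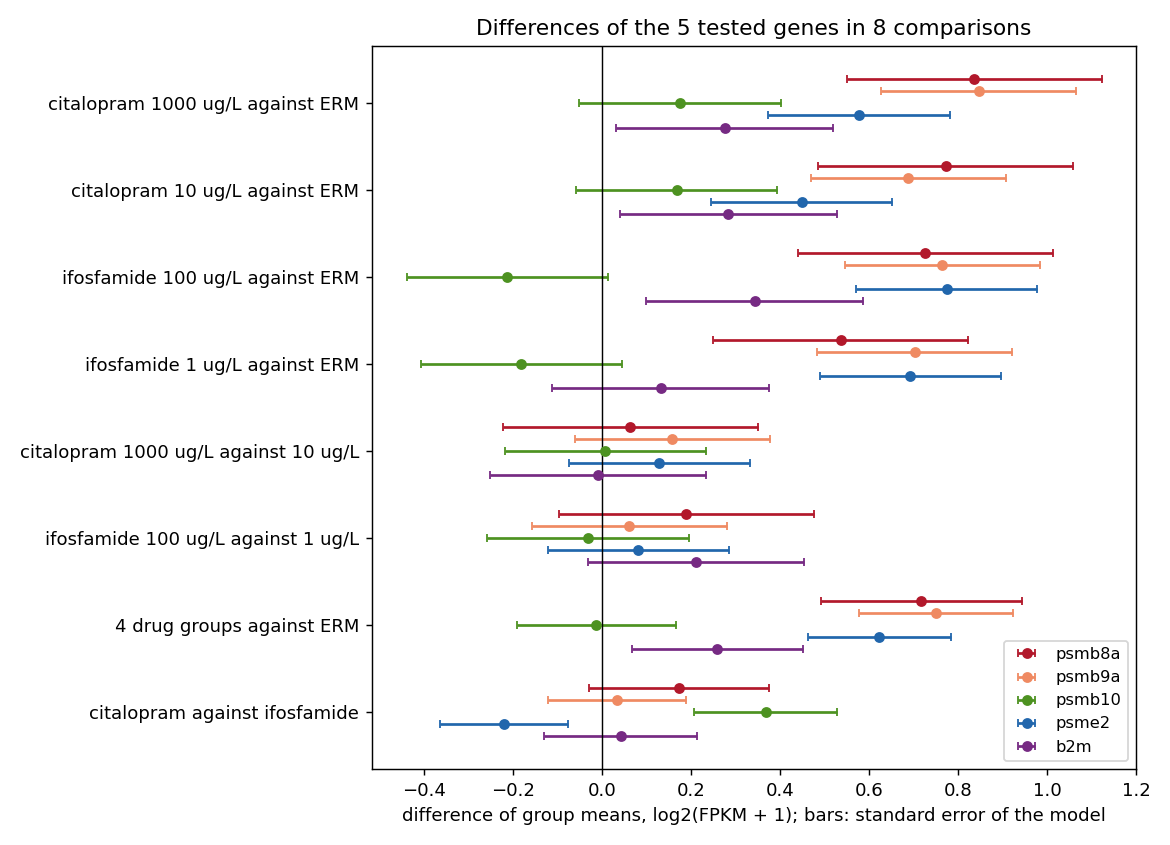
Difference of group means on the log2(FPKM + 1) scale (x axis) for the 5 tested genes (colours) in the 8 comparisons (rows); bars are standard errors of the model over 20 libraries. psmb9a, psmb8a and psme2 lie between 0.45 and 0.85 in every comparison with ERM, psmb10 between -0.21 and 0.18, and the comparisons of doses lie near 0.

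Within groups, the inducible subunits varied together from library to library. With the group means removed, psmb8a and psmb9a had a Pearson r of 0.92 and a Spearman rho of 0.87 over 20 libraries (adjusted permutation p = 0.00120 and 0.00480, libraries permuted within groups, 10 pairs of genes), and r was 0.88 without the 2 libraries farthest from the median of psmb8a and 0.91 without library C of citalopram 1000 µg/L. psmb10 went with psmb9a (r = 0.77, rho = 0.65, adjusted permutation p = 0.00500 and 0.0178) and with b2m (r = 0.77, rho = 0.71, adjusted permutation p = 0.00807 and 0.00820). In all, 6 of the 10 pairs passed by both measures, namely every pair among psmb8a, psmb9a, psmb10 and b2m. With the 2 farthest libraries left out, r of these 6 pairs ran from 0.53 (psmb8a with psmb10) to 0.88. How often pairs of other gene models pass was not computed, so the count is not read as particular to these genes. The constitutive subunits had the same extreme libraries at citalopram 1000 µg/L, C highest and D lowest. These held 52.2 and 11.5 FPKM of psmb5, 292 and 40.9 of psmb6, and 367 and 79.7 of psmb7. At ifosfamide 1 µg/L, D was lowest for psmb8a, psmb9a, psmb10 and psmb6, but A for psmb5 and B for psmb7. Whether the correlations reflect differences between whole libraries was not tested. The 4 pairs with psme2 had r from 0.20 to 0.53 and did not pass. Since psmb8a and psmb9a overlap on the genome, as described next, reads of one could count for the other.

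**Figure D4:**
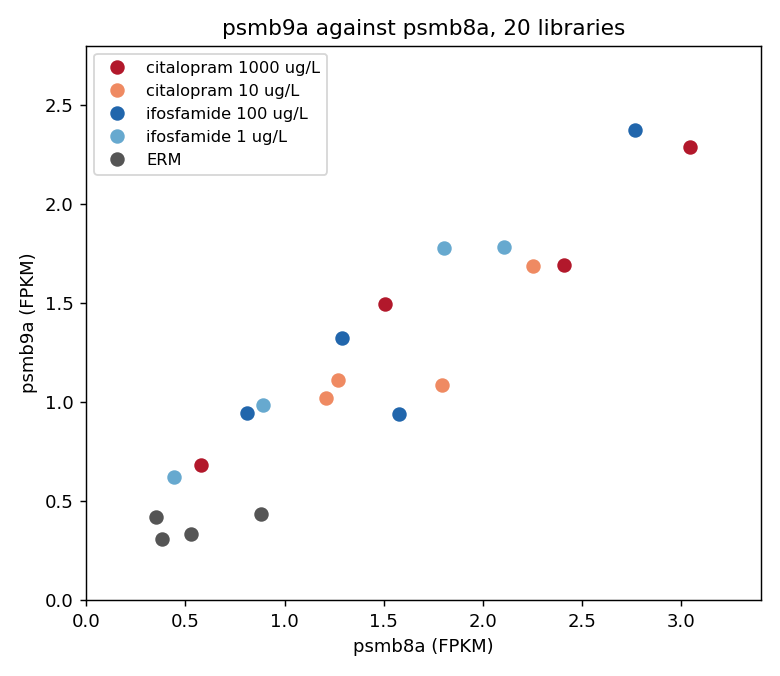
FPKM of psmb9a (y axis) against psmb8a (x axis), both linear, 1 point per library coloured by group. The 4 ERM libraries lie at the low end of both axes, and libraries of each drug group are spread along a rising band, with 3.05 and 2.29 FPKM in library C of citalopram 1000 µg/L.

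On chromosome 19 the gene models of this family are interleaved. The span of psmb8a on the minus strand covers psmb12, psmb9a and tap2a on the plus strand and shares 32770 bases with psmb13a on its own strand. psmb12 and psmb13a are further proteasome subunits found in fish and related to the inducible ones. The libraries were directional per the labels, but the strand setting of the counting is not given in the sources used here, so reads of these overlapping models may not be told apart. psme2 likewise shares 455 bases with lsm5 and b2m 5027 bases with irak3. The neighbours were looked at after the values of the members were seen. psmb13a averaged 1.05 ± 0.488 FPKM in the 16 drug libraries and 0.297 ± 0.216 in the 4 ERM libraries, and psmb12 averaged 2.42 ± 1.37 in drug libraries and 1.22 ± 0.468 in ERM. The tapasin gene tapbp.1, whose protein holds empty class I molecules at the transporter, averaged 5.32 ± 1.61 FPKM in drug libraries and 3.16 ± 0.840 in ERM, with 14 of 16 drug libraries above every ERM library. The class I chain mhc1uka averaged 1.47 ± 0.611 and 0.754 ± 0.333 FPKM in drug and ERM libraries, with 13 of 16 above, and mhc1uba 2.27 ± 0.586 and 1.57 ± 0.648, with 4 of 16 above. Shares of all gene models with such counts were not computed, so nothing is read from these 3 counts. Farther out, the nearest genes outside the antigen presentation group differed little: brd2a averaged 22.4 ± 2.63 FPKM in drug libraries and 22.5 ± 4.15 in ERM, and daxx 5.11 ± 0.736 and 4.76 ± 0.997. A window from 120 kb before psmb8a to 80 kb after it was set after the values were seen. In it, 15 of 16 protein-coding gene models had a positive difference, beside 48.7% of all tested gene models, col11a2 being the exception. The 15 include psmb8a and psmb9a, which were chosen for being higher, and values as small as 0.004 (brd2a), so nothing is read from the count. Only tap2a of the antigen presentation genes lay near 0 (0.01), and with 1 to 9 reads per library no difference was detectable in it.

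**Figure D5:**
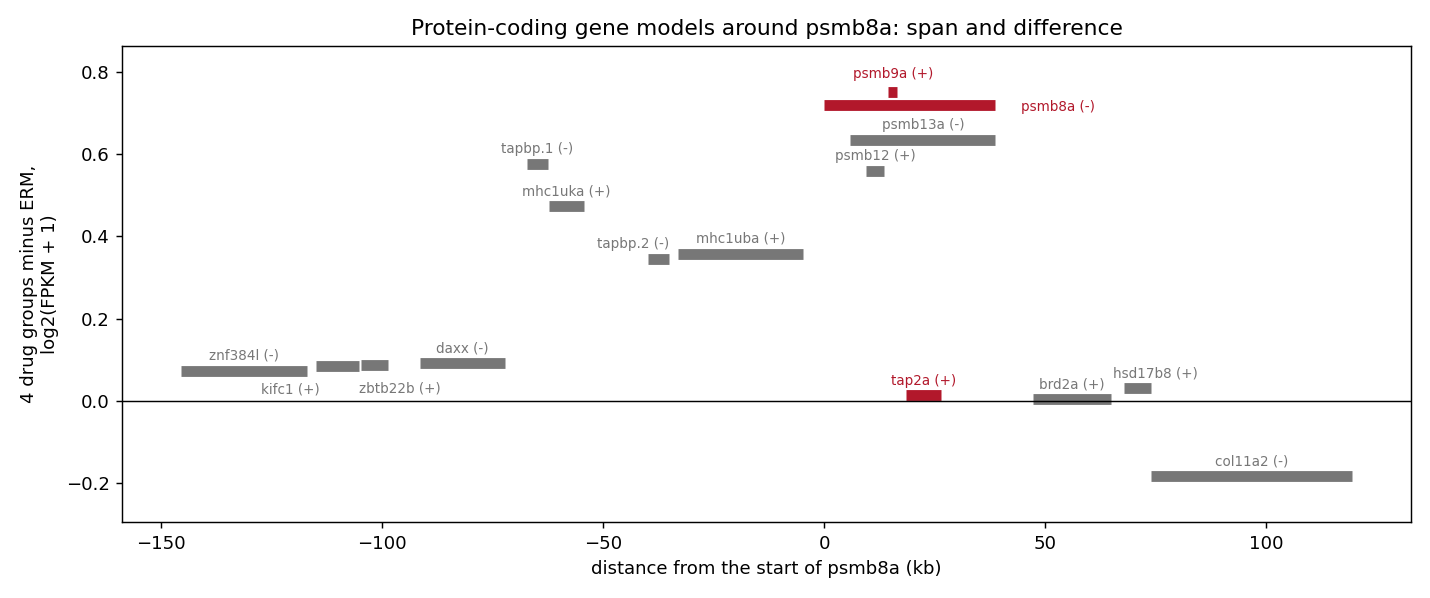
Protein-coding gene models around psmb8a on chromosome 19, drawn to scale as bars from their start to their end in kb from the start of psmb8a (x axis), at the height of their difference between the 4 drug groups and ERM on the log2(FPKM + 1) scale (y axis); strand in brackets, members in red. The models from tapbp.1 to psmb13a lie between 0.35 and 0.75 except tap2a, which has 1 to 9 reads per library. Those outside lie between -0.18 and 0.09.

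The lists of related genes had no member past the threshold in any comparison (limma, adjusted over all gene models). At an unadjusted p under 0.05 were 11 of their 133 tested gene models, cell type markers included, for the 4 drug groups together against ERM, beside 3.6% of all tested gene models. Among the 133, mhc1uka and the interferon list genes mxc and tmem173 averaged under 1 FPKM in ERM and reached the level required for testing through the drug groups. In turn, the class I chain mhc1zka and the interferon list gene rsad2 averaged under 1 FPKM in drug libraries and reached that level through ERM. The lists were also chosen with earlier results known, so nothing is read from this count. The counts of signs by list include these genes and are descriptions. For the 4 drug groups together against ERM, 10 of 14 tested genes of peptide loading had a positive difference with a median of 0.18, 6 of 8 MHC class I chains (median 0.20), 6 of 7 genes of MHC class II presentation (median 0.34) and 15 of 23 regulators (median 0.06), beside 48.7% of all gene models and a median of 0.00. Of the proteasome caps, 2 of 23 were positive (median -0.12), and of the core and assembly genes 4 of 14 (median -0.09). The difference of psme2 (0.62) thus had the opposite sign from most of these genes, a contrast that was not tested. psmb8a and psmb9a were chosen for being higher than in ERM, so their sign is not set against the lists. The peptide trimming enzyme erap1a averaged 3.37 ± 0.547 FPKM in drug libraries and 2.63 ± 0.336 in ERM, and the chaperone canx 46.0 ± 7.00 and 38.1 ± 2.59. Among class II genes, the invariant chain cd74b averaged 5.42 ± 3.05 FPKM in drug libraries and 3.41 ± 1.39 in ERM, and the cathepsin ctss2.2 40.6 ± 15.5 and 24.8 ± 5.61.

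Of the regulators, the interferon regulatory factor irf1b, whose mammalian counterpart switches on the inducible subunits, is listed under 2 gene models. The one with the Ensembl identifier ENSDARG00000043249 averaged 5.66 ± 1.98 FPKM in the 16 drug libraries and 2.82 ± 0.178 in the 4 ERM libraries, a difference of 0.73 (SE 0.23, limma adjusted p = 0.786). The other, ENSDARG00000110357, averaged 40.2 ± 29.7 FPKM in drug libraries and 38.9 ± 5.17 in ERM (-0.15, SE 0.30, adjusted p = 1.00). rfxap, part of the complex that binds MHC class II promoters in mammals, averaged 2.45 ± 0.561 FPKM in drug libraries and 3.63 ± 0.316 in ERM (-0.44, SE 0.14, adjusted p = 0.799). Genes switched on by interferon showed no common direction. Of 11 tested, 5 were positive for the drug groups together (median -0.01), 4 at citalopram 1000 µg/L and 8 at citalopram 10 µg/L. Of these 11, mxc and tmem173 reached the level required for testing through the drug groups. rsad2, negative for the drug groups together, reached it through ERM, with 0.797 ± 1.33 FPKM in drug libraries and 1.91 ± 3.09 in ERM. The counts are therefore descriptions. The antiviral gene mxc averaged 2.45 ± 1.05 FPKM in drug libraries and 0.944 ± 0.350 in ERM (0.79, SE 0.22, limma adjusted p = 0.660), and tmem173, the sensor adaptor STING, 1.61 ± 1.099 and 0.816 ± 0.373.

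The mean standardized profile of the 5 tested genes across the 20 libraries was set against other tested Ensembl gene models. Gene models with placeholder-like symbols were left out, so closer ones may exist. The genes most like the profile among those ranked were lygl1, a goose-type lysozyme (r = 0.94), ctss2.2 (r = 0.91), cd74b (r = 0.90), ctsk (r = 0.89) and fuca1.1 (r = 0.89). With group means removed they were lygl1 (r = 0.94), arpc1b (r = 0.93), cd74b (r = 0.92), b3gnt7l (r = 0.91) and uxs1 (r = 0.91). Without library C of citalopram 1000 µg/L the first 5 had r from 0.83 to 0.95. lygl1 averaged 25.4 FPKM in drug libraries and 15.05 in ERM. The first profile holds the differences from ERM that psmb8a and psmb9a were chosen on, so nothing is read from this difference. The points share libraries and depth, and the values are descriptions.

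Markers of immune cells were in part higher in mean in the drug libraries than in ERM. The summed level of 5 macrophage markers ran from 28.5 to 53.9 FPKM at citalopram 1000 µg/L, 29.8 to 47.1 at citalopram 10 µg/L, 30.8 to 56.6 at ifosfamide 100 µg/L, 22.2 to 72.5 at ifosfamide 1 µg/L and 13.8 to 27.7 in ERM. Most of this was mpeg1.2, a perforin-like gene of macrophages, at 28.2 ± 13.3 FPKM in the 16 drug libraries and 9.35 ± 6.35 in the 4 ERM libraries (1.54, SE 0.35, limma adjusted p = 0.299). Of the other macrophage markers, marco and csf1ra moved less: marco averaged 4.34 ± 1.51 FPKM in drug libraries and 3.91 ± 0.921 in ERM, and csf1ra 3.99 ± 1.43 and 3.93 ± 0.956. The median difference of the 4 tested macrophage markers, mfap4 included, was 0.18. For the drug groups together, 3 of 4 tested macrophage markers, 3 of 3 leukocyte markers, 4 of 4 neutrophil gene models and 1 of 2 T and NK cell markers had a positive difference, none past the threshold. The sum of 5 leukocyte markers ran from 13.8 to 43.1 FPKM in drug libraries and 13.3 to 23.5 in ERM, that of neutrophils from 12.6 to 33.6 and 12.7 to 14.9, and that of T and NK cells from 5.25 to 10.6 and 6.70 to 7.94. coro1a of the leukocyte list and lck of the T cell list were at 0 in all libraries. The part of these cells in the levels of the 8 genes was not tested.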

How the data were processed

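RNA of whole larvae was sequenced as directional poly(A) libraries, per the labels' protocols. The GRCz11 build and the tools fastp, HISAT2, featureCounts and DESeq2 are listed, with no roles or versions, per the submitters' processing notes. The authors deposited FPKM for 38718 gene models. FPKM times gene length, in units of the smallest step in each library, gave whole reads (within 0.01) for 100% of nonzero values, and the scaling equalled median-of-ratios size factors in all 20 libraries.

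The test was limma (version 3.58.1, R 4.3.3) applied to log2(FPKM + 1), a scale that understates changes of low genes, with an intensity trend, all 20 libraries and 15 residual degrees of freedom. Tests covered the 19723 gene models averaging 1 FPKM or more, two-sided, with Benjamini-Hochberg adjustment over all of them. The same letter in different groups was not treated as a shared source. Of 36 such pairs of libraries, 13 correlated above 0.1 (median 0.02, range -0.44 to 0.42), and the median was -0.004 for pairs with different letters. Whether some letters share a source was not tested. Correlations used 100000 permutations (1e+05). No 2 replicates agreed within sampling noise (chi-square per degree of freedom 6.69 to 147). The model was tested on simulated data. Alternatives covered the pseudocount, filter, scaling, library weights, a replicate block, voom on recovered reads, the groups in the model and each library left out.

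The members and gene lists were chosen with earlier results of these data known. Named are the 8 members, up to 4 genes per list with the smallest p for the drug groups together against ERM, and the 5 genes most alike by each profile. That ranking left out gene models without an Ensembl identifier, symbols with a colon, clone-like names, and symbols starting with zgc, si, im, wu or LOC. The chromosome 19 neighbours psmb13a, brd2a, daxx and col11a2, the paralogs tap2t and b2ml, and the gene model like psme1 were added after values were seen. So were the list genes rsad2 and mhc1zka.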

Additional observations from a re-analysis of the deposited data

Results flagged for a closer look

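In 45 groups of 4 libraries (the 8 genes and the gene model like psme1, each in 5 groups), 4 had a library far from the other 3, where chance flags about 1 in 20. The groups in which psme1 was 0 in every library could not be flagged. In its remaining group the only library above 0 was bound to be flagged, so the 4 are not weighed against that share. psmb9a at citalopram 10 µg/L was 1.69 FPKM in library C, against 1.02 to 1.11 in the others. psmb10 at ifosfamide 100 µg/L was 6.60 FPKM in library B, against 3.41 to 3.86. psme1 at ifosfamide 1 µg/L was 1.21 FPKM in library B, against 0 in the others. The gene model like psme1 on the alternate contig was 0.552 FPKM in library A of ERM, against 2.28 to 2.62.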

How the results depend on the processing

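The number of the 5 genes past the threshold was 0 in each of the 8 comparisons and remained 0 in 242 of 248 combinations of comparison and alternative, with the replicate block (0 in every comparison), voom, both other pseudocounts and both other filters among them. With library weights, against ERM, it was 5 at citalopram 1000 µg/L (all 5 genes, among 3879 of the 19723 tested gene models). It was 1 at ifosfamide 100 µg/L (psme2, among 209) and 2 at ifosfamide 1 µg/L (psmb9a and psme2, among 188). For the 4 drug groups together against ERM it was 3 (psmb8a, psmb9a and psme2, among 152). For citalopram against ifosfamide it was 1 (psmb10, among 6731). Those weights gave library A of citalopram 1000 µg/L 15.7 and library C 0.128, so the count at citalopram 1000 µg/L leans on 1 library. The genes were chosen on differences of psmb8a and psmb9a from ERM, so nothing is read from these 2 passing against ERM. With each library left out in turn the counts ran from 0 to 1, the 1 being psmb10 for citalopram against ifosfamide without library D of citalopram 1000 µg/L (the cause was not tested). Leaving out its libraries C and D together, added after the data were seen, called 0 in every comparison. The log2 differences of psmb8a and psmb9a from ERM depend on the scale: for the drug groups together they were 0.72 and 0.75 on log2(FPKM + 1), 1.343 and 1.55 with a pseudocount of 0.1, and 1.52 and 1.75 by voom. Of 1528 log2 differences under alternatives, 22 moved beyond the spread between libraries and 73 had the other sign, in differences of at most 0.28 in size. The cause was not tested. The read counts of psmb9a in ERM, 4 to 7 per library, limit its fold change.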
